A study of Mus musculus with 4 samples.

Results

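Lactate leaves a glycolytic cell by a short path, and 7 genes of that path were followed in group 2 innate lymphoid cells (ILC2s) of the mouse lung, out of 22554 genes in the table of counts. They were chosen by symbol, as the lactate dehydrogenases Ldha and Ldhb, the monocarboxylate transporters Slc16a3 and Slc16a1 with their partner Bsg, and the glucose transporters Slc2a1 and Slc2a3. Each symbol had 1 row, and all 7 rows passed the filter on low counts with which 17650 genes were tested. The choice was made with results of these same libraries known. Differences between the groups in these 7 genes are therefore a description and support nothing beyond the values themselves.

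The libraries came from ILC2s sorted from lungs of wild-type BALB/c mice aged 6 weeks and kept in culture with the cytokines IL-2, IL-7 and IL-33. IL-2 and IL-7 keep the cells alive and IL-33 activates them. The groups were vehicle (labelled Control) and compound 5D, an inhibitor of the Orai calcium channels of the plasma membrane, with 2 libraries each. All 4 libraries shared the strain, the age and the cytokines, and nothing in the labels says whether the replicates of a group came from separate mice or cultures. P-values then measure only the spread between these libraries, which may be technical. The study asked how the loss of calcium entry changes the RNA of activated ILC2s, among it the RNA of their metabolism.

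Glucose enters a lymphocyte by facilitated diffusion, mainly through the carrier GLUT1, which Slc2a1 encodes. GLUT3, from Slc2a3, is a carrier of higher affinity. Glycolysis turns the glucose to pyruvate, and lactate dehydrogenase reduces pyruvate to lactate, which returns the NAD+ that glycolysis needs. The enzyme is a tetramer of the subunits A (Ldha) and B (Ldhb). Subunit A is the form of cells with a high glycolytic flux, and subunit B prevails in tissues that burn lactate, such as the heart. Lactate then crosses the membrane together with a proton through the monocarboxylate transporters MCT4 (Slc16a3), known as an exporter of glycolytic cells, and MCT1 (Slc16a1), which carries lactate in both directions. Both need basigin (Bsg), a membrane glycoprotein that brings them to the cell surface.

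Total counts were 20096513 to 23239764 with vehicle and 26912647 to 28697196 with 5D, so that depth moved with the group. Mitochondrially encoded genes took 0.981% and 1.06% of the counts with vehicle and 0.808% and 0.809% with 5D. The 12 listed ILC2 markers, among them Gata3, Il1rl1 and Il5, were detected in every library, with a sum of 10849 to 11039 normalized CPM with vehicle and 10184 to 10625 with 5D. The marker sums of other cell types were far lower. Epithelial, endothelial and fibroblast genes summed to 46.8 to 49.9 with vehicle and 43.5 to 45.5 with 5D, T cell genes to 25.6 to 25.8 and 26.8 to 27.3, and red cell genes to 8.35 to 8.99 and 7.14 to 7.92, so that these small sums differed between the groups without overlap. B cell genes reached 19.4 at most, and NK cell, macrophage, neutrophil and mast cell genes 10.6. The part of depth, mitochondrial share and marker sums in the results was not tested, except that Slc16a3 and Ldha were both still called lower with mitochondrially encoded genes left out and that values in thinned libraries stand beside theirs. Of 47 genes on these other lists, values of 34 were used, and Cd4, S100a9, Mcpt4, Scgb1a1, Col1a2 and Pdgfra were at 0 in every library. In bulk RNA, fewer cells of a type and less RNA per cell cannot be told apart.

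Promoters are shown for the pairs Ldha with Ldhb and Slc16a3 with Slc16a1, and their part in the RNA levels was not tested. They are RefSeq windows on GRCm38.p6 of 300 bases, from 250 before the start site to 50 after it. Windows were held for 5 of the 7 genes, and Ldha had 2 of them. Capitals mark ACGTG or GCGTG on either strand, the core of the hypoxia response element that HIF-1 binds. The E-box CACGTG, which MYC and MAX bind, holds ACGTG on both strands, so each E-box counts among those matches on either strand.
Ldha, plus strand, chr7:46845554-46845853: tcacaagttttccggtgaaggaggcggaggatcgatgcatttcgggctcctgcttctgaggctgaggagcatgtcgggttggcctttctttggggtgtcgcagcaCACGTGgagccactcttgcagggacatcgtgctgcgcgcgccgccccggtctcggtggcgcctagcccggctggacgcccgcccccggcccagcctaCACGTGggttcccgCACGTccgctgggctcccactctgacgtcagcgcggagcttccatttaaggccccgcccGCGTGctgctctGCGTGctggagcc
Ldhb, minus strand, chr6:142507908-142508207: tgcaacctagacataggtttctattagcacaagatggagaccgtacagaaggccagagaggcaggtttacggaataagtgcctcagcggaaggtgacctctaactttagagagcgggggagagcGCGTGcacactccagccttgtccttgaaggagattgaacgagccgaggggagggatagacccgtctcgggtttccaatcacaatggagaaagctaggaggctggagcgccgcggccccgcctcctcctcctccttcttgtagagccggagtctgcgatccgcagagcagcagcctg
Slc16a3, plus strand, chr11:120948817-120949116: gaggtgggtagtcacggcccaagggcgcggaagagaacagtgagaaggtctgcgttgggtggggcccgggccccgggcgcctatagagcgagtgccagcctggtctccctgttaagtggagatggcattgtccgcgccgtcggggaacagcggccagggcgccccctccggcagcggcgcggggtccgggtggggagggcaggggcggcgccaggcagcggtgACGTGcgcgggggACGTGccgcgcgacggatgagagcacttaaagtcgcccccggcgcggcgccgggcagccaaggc
Slc16a1, plus strand, chr3:104638414-104638713: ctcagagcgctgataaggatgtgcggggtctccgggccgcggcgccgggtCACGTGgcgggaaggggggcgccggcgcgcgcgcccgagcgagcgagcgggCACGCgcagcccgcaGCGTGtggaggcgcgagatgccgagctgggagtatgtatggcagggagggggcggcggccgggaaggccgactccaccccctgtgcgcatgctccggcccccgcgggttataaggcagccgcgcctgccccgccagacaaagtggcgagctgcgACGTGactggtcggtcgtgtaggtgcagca

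Positions are those of the leftmost base of a match, with the start site as the first positive position and no position 0. The window of Ldha shown held CACGTG at -145 and -48, a further ACGTG on the other strand at -34, and GCGTG at 26 and 38. The last bases of this first Ldha window were found in no annotated GENCODE transcript of Ldha. Those of each other window were found in a transcript of its gene. The window of Slc16a3 held ACGTG at -27 and -14, both before the start site, and no CACGTG. In Slc16a1, CACGTG stood at -200, ACGTG at 21 and GCGTG at -149 and -134. Ldhb held only GCGTG, at -126. The second Ldha window, which starts further downstream (chr7:46846832-46847131), held GCGTG at -59 and 41, and the Slc2a1 window (chr4:119108495-119108794, plus strand) held GCGTG at -61 and ACGTG at -36. One or the other core was thus found in all 6 windows, and it is a frequent string, present in 43.8% of all 32817 promoter windows and in 60.6% of those of genes tested here. CACGTG was in 7.15% of all windows and in 9.75% of those of tested genes. The GC box GGGCGG, which SP1 binds, matched 3 times in the first Ldha window, and it was found in Slc2a1 at -45 and -20, in Slc16a3 at -48 and in Slc16a1 at -85. It is held by 35.6% of all windows and by 60% of those of tested genes. GGAAA, the core of the sites that the calcium-dependent factor NFAT binds, matched in Ldha at -242 and in Ldhb at -56 and is held by 61.3% of all windows and by 58.8% of those of tested genes. These matches are strings in a window, and no binding was measured.

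**Figure D1:**
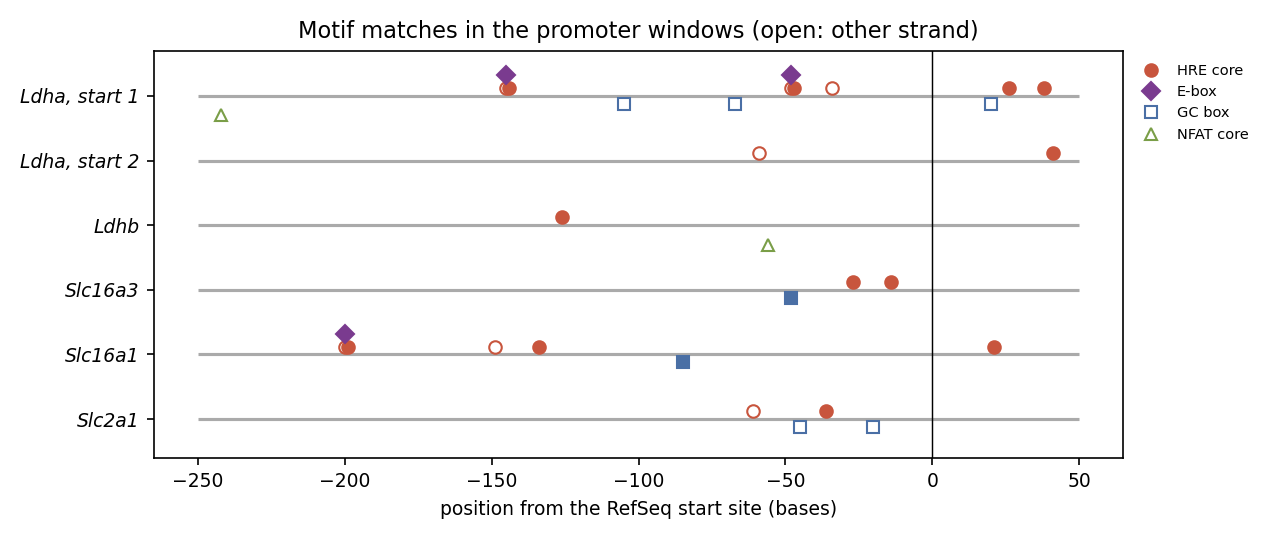
Motif matches in the 6 RefSeq promoter windows, by position in bases from the start site (x axis), with filled symbols for the strand of the gene and open symbols for the other strand. HRE core stands for ACGTG or GCGTG, E-box for CACGTG, GC box for GGGCGG and NFAT core for GGAAA. E-boxes were found in the first window of Ldha and in Slc16a1, and every window held at least 1 HRE core.

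The levels of the 7 genes spanned more than 2 orders of magnitude. Per length, in normalized CPM (gene counts scaled by the normalized library total) per kb of annotated exon, Ldha stood at 1053 and 1082 in the vehicle libraries and was the 23rd highest of 17364 genes ranked. Bsg followed at 209 and 221. Slc2a1 had 45.2 and 45.9, Slc16a3 had 29.0 and 29.5, and Slc16a1 had 20.3 and 19.4. The lowest were Ldhb, at 9.98 and 12.5, and Slc2a3, at 5.04 and 4.70. The 2 libraries of each gene lay apart from those of its neighbours in this order, with vehicle as with 5D. The closest neighbours were Slc16a3 and Slc16a1, whose levels stood in a ratio of 1.48 with vehicle and 1.13 with 5D. The order was the same when the longest annotated transcript was taken as the length, although Ldha then had 1947, since its longest transcript has 1815 bases and the union of the exons of its 15 transcripts has 3310.

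**Figure D2:**
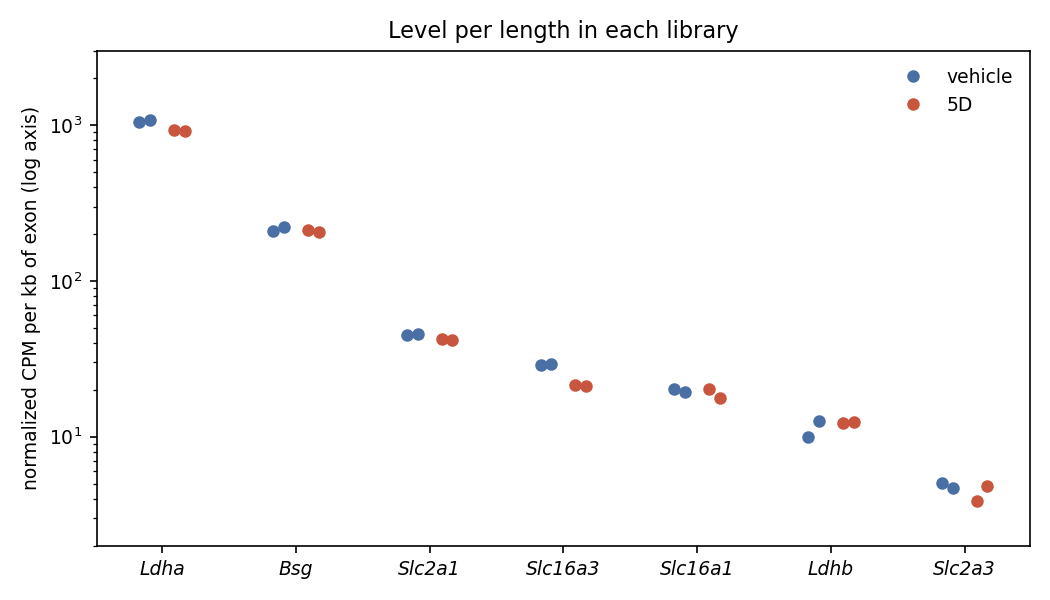
Level of each gene in normalized CPM per kb of exon on a log axis (y axis), with 1 point per library, for 2 vehicle and 2 5D libraries. Ldha stood highest, at 1053 and 1082 with vehicle, and Slc2a3 lowest, at 5.04 and 4.70.

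In 5D-treated ILC2s, mean normalized CPM of Slc16a3 fell by 26.7% and that of Ldha fell by 13.5%, while Slc16a1, Bsg, Ldhb and Slc2a3 had libraries that overlapped between the groups. The 5D libraries were both under the vehicle libraries for 3 of the 7 genes (Slc16a3, Ldha and Slc2a1) and above them for 0, where over all genes tested the shares were 18.8% and 18.7%. At an adjusted p-value under 0.05 in edgeR's quasi-likelihood fit (Benjamini-Hochberg over all genes), 2 of the 7 were called lower and 0 higher, beside 0.0680% and 0.0283% of all genes. With an unadjusted p-value under 0.05 as the limit, the same 2 were lower and 0 were higher, beside 3.84% and 3.50% of all genes. As the genes were chosen with this contrast known, nothing is read from these counts. The median log2 fold change of the 7 was -0.11 and that of all genes tested was -0.0016.

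Slc16a3 (ENSMUSG00000025161.16, plus strand, chr11:120948480-120960868 on mm10, GENCODE M21) encodes the exporter MCT4. It was measured at 154 and 157 normalized CPM in the vehicle libraries and at 115 and 113 in the 5D libraries, from 3118 to 3578 counts per library. Both 5D libraries were low and the groups did not overlap. Means of 155 ± 1.98 in vehicle and 114 ± 1.29 in 5D libraries were found (SD, n = 2 each). The gap between the nearest libraries, 25.2% of the vehicle mean, was far wider than the spread within either group. The vehicle SD was below the counting error of 2.575 and 2.80 normalized CPM, so this spread may understate the noise. On the log2 scale it fell by 0.45 (standard error 0.06, 95% interval of the fit from -0.58 to -0.32, adjusted p = 0.0240 in edgeR's quasi-likelihood fit). Its p-value was the sixth smallest of 17650. Without 5D replicate 2 the log2 fold change was -0.44 and the adjusted p-value 0.0573. It was also -0.45 in a single draw of libraries thinned to the smallest total.

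Slc16a1 (ENSMUSG00000032902.1, plus strand, chr3:104638668-104658462) encodes the carrier MCT1. It had 89.8 and 85.7 normalized CPM with vehicle and 89.8 and 78.7 with 5D. The highest values of the groups were equal to 3 digits, and the groups overlapped. Its log2 fold change was -0.06 (standard error 0.08, 95% interval from -0.23 to 0.12), and without 5D replicate 2 it was 0.031. The coding sequences of Slc16a1 and Slc16a3 were identical at 59.2% of their aligned bases, and no other gene shared a near-identical stretch (at least 150 bases at 95% identity) with either.

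Slc16a1 made up 41.2% and 39.6% of the summed level of both transporters per length with vehicle, and 48.4% and 45.5% with 5D. The 5D libraries were both above the vehicle libraries, with mean shares of 40.4% ± 1.10 and 47.0% ± 2.03 (SD, n = 2 each). Within each library this ratio does not depend on the scaling between libraries, and the ratio of Slc16a1 to Slc16a3 was 1.31-fold higher with 5D. The summed level of both was 49.3 and 48.9 normalized CPM per kb with vehicle and 41.9 and 39.0 with 5D, a change of -17.5%. An exact permutation test of 2 against 2 libraries cannot give a p-value below 0.333, and the shares are given as a description, without a test.

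Bsg (ENSMUSG00000023175.15, plus strand, chr10:79704491-79711969), the chaperone of both transporters, had 379 and 401 normalized CPM with vehicle and 384 and 375 with 5D. The groups overlapped. A log2 fold change of -0.04 (standard error 0.05) was estimated, with a 95% interval from -0.14 to 0.06 that was narrower than those of the other genes except Ldha. Per length, Bsg stood at 4.25 and 4.52 times the sum of both transporters with vehicle and at 5.05 and 5.29 times with 5D. Embigin (Emb), another chaperone of monocarboxylate transporters, was measured at 1068 and 1081 normalized CPM with vehicle and 1111 and 1152 with 5D. Both 5D libraries were above both vehicle libraries, with a log2 fold change of 0.07 (standard error 0.04, unadjusted p = 0.0670 by edgeR's quasi-likelihood test). Per length Emb reached 0.709 to 0.808 of the level of Bsg in the 4 libraries.

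Ldha (ENSMUSG00000063229.15, plus strand, chr7:46841475-46855627) encodes subunit A. It had 3485 and 3582 normalized CPM with vehicle and 3076 and 3039 with 5D, from 71686 to 86904 counts, which is 0.303% to 0.357% of all counts of a library. Both 5D libraries were low and the groups did not overlap. On the log2 scale Ldha fell by 0.21 (standard error 0.03, 95% interval from -0.27 to -0.14, adjusted p = 0.0253 by the same edgeR fit), and its p-value was the tenth smallest. The adjusted p-value was 0.0764 without 5D replicate 2 and 0.0526 in the same draw of thinned libraries, with log2 fold changes of -0.20 and -0.21. Gm11814, Gm5452, Gm5987, Gm9247 and Ldha-ps2 share near-identical stretches of up to 1000 bases with Ldha, and reads could be split among them. Together these 5 genes held 1.06% to 1.10% of the counts summed with Ldha in each library, a share that was alike in both groups.

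Ldhb (ENSMUSG00000030246.11, minus strand, chr6:142490249-142507957) encodes subunit B. It had 15.7 and 19.7 normalized CPM with vehicle and 19.3 and 19.5 with 5D, from 364 to 558 counts. The vehicle libraries differed by more than the counting error of 0.821 and 0.992 normalized CPM, and they lay on either side of both 5D libraries. Its estimated log2 fold change was 0.14 (standard error 0.14, 95% interval from -0.18 to 0.45), and without vehicle replicate 1 it was -0.025. Gm5514 shares a stretch of 1002 bases at 98.0% identity and held 3 to 8 counts per library. The coding sequences of Ldha and Ldhb were identical at 73.0% of their aligned bases.

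Per length, Ldha stood 106 and 86.3 times above Ldhb with vehicle and 75.7 and 73.9 times with 5D. The share of Ldhb in the pair was 0.939% and 1.15% with vehicle and 1.30% and 1.34% with 5D, so that both 5D libraries were above, by a gap no wider than that between the vehicle libraries. On either reading the RNA of subunit A made up at least 98.2% of all lactate dehydrogenase RNA listed, with Ldhd, the enzyme of D-lactate, at 0.460% with vehicle and 0.486% with 5D.

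**Figure D3:**
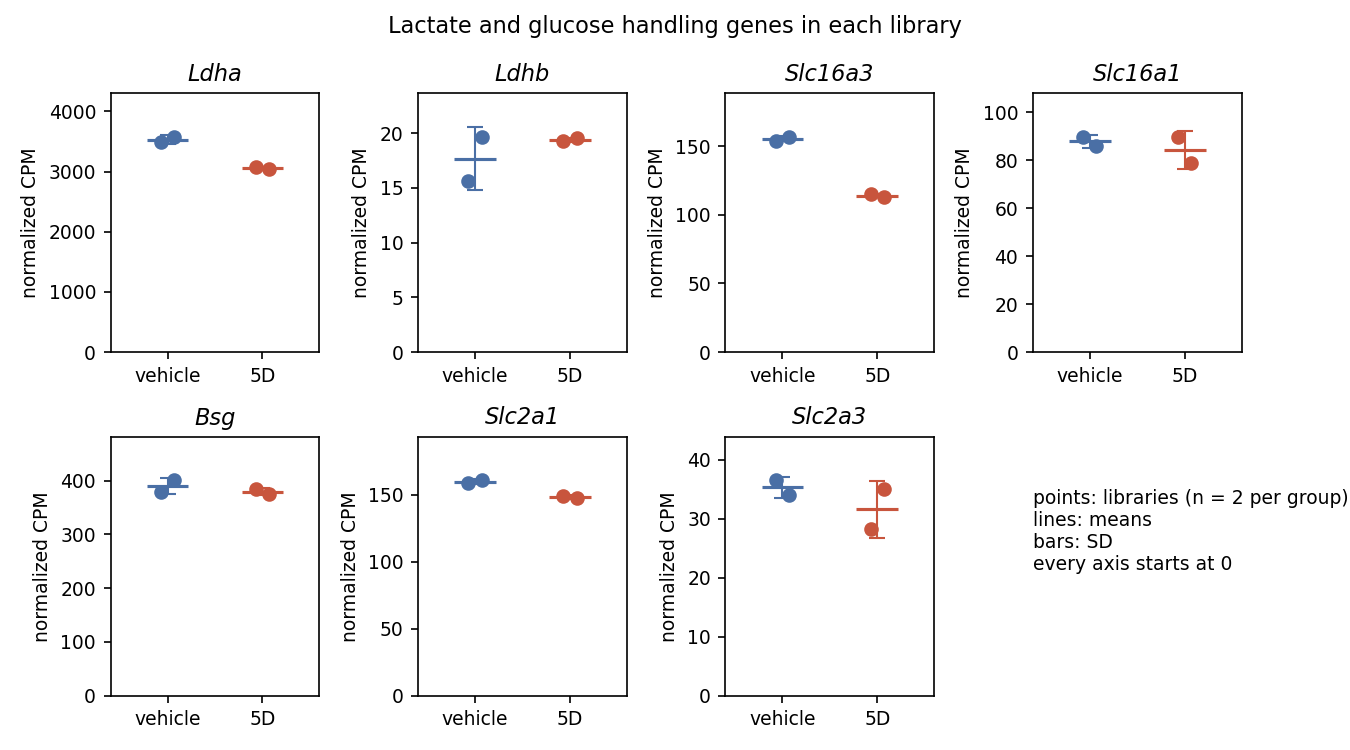
Normalized CPM of each gene (y axes, each from 0) in 2 vehicle and 2 5D libraries, with points for libraries, lines for means and bars for the SD. The 5D libraries of Ldha, Slc16a3 and Slc2a1 lay below both vehicle libraries, and the groups overlapped for the other 4 genes.

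Slc2a1 (ENSMUSG00000028645.11, plus strand, chr4:119108711-119137983) encodes GLUT1. It had 158 and 161 normalized CPM with vehicle and 149 and 147 with 5D, from 3220 to 4209 counts. The 5D libraries were the lower pair, without overlap, with means of 160 ± 1.71 for vehicle against 148 ± 1.56 (SD, n = 2 each). The vehicle SD was below the counting error of 2.61 and 2.84 normalized CPM, so this spread may understate the noise. Here the log2 fold change was -0.11 (standard error 0.06, 95% interval from -0.23 to 0.02), and it did not pass the threshold (adjusted p = 0.740 by edgeR). The antisense gene Gm12868 overlaps its exons by 105 bases and held 0 to 3 counts per library.

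Slc2a3 (ENSMUSG00000003153.10, minus strand, chr6:122727809-122801640) encodes GLUT3. It had 36.5 and 34.0 normalized CPM with vehicle and 28.2 and 35.0 with 5D. Only 5D replicate 1 was low, and the groups overlapped. Its change was -0.16 on the log2 scale (standard error 0.12, 95% interval from -0.43 to 0.11), and it ran from -0.33 to -0.02 when a library was left out. Its exons share stretches of at most 195 bases with 60 other genes. Of these, 52 had values used here, and they summed to 62253 to 90970 counts per library, against 681 to 1001 for Slc2a3. The coding sequences of Slc2a1 and Slc2a3 were identical at 70.4% of their aligned bases.

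Slc2a3 made up 10.0% and 9.28% of the summed level of both glucose transporters per length with vehicle and 8.36% and 10.3% with 5D, and the groups overlapped. Of the 8 transporters of the SLC2 family with values used here, Slc2a1 held 68.7% of the summed level per length with vehicle and 66.4% with 5D. The next was Slc2a8, a transporter of internal membranes, at 15.2% and 17.5%, and Slc2a3 followed at 7.35% and 6.85%. The muscle and fat transporter Slc2a4 and the liver transporter Slc2a2 did not pass the filter on low counts.

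**Figure D4:**
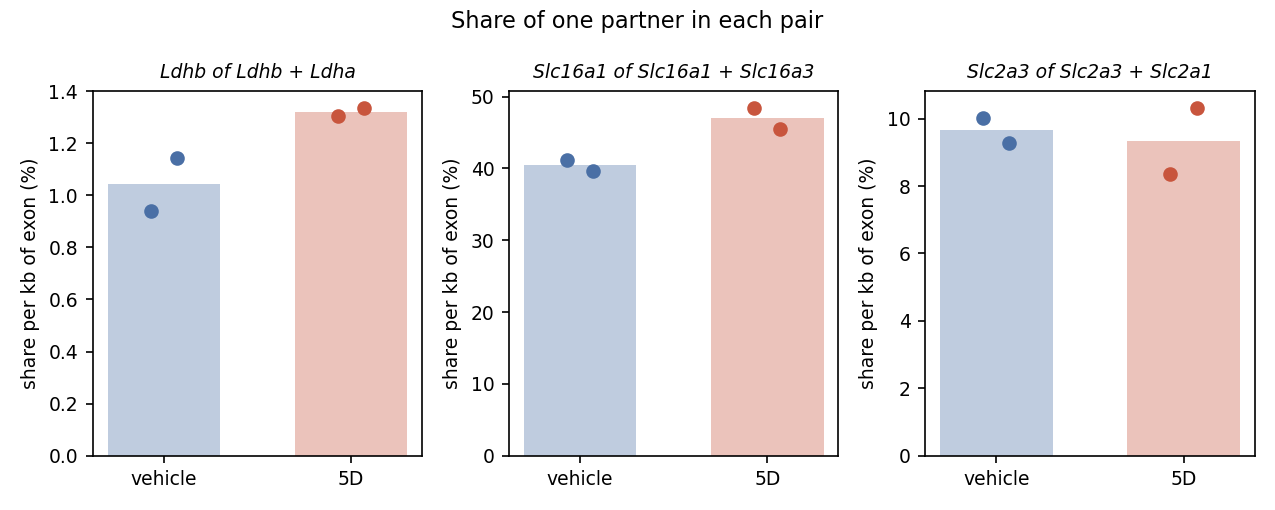
Share of one partner in the summed level of a pair per kb of exon, in percent (y axes from 0), with bars for group means and points for the 2 libraries. The share of Slc16a1 was 41.2% and 39.6% with vehicle and 48.4% and 45.5% with 5D, whereas the share of Slc2a3 overlapped between the groups.

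Set against each other within a library, the 7 genes did not move by the same amount. The ratio of Slc16a3 to each of the other 6 genes was lower in both 5D libraries than in both vehicle libraries. These ratios all share Slc16a3 and are not independent, and the share among all pairs of genes was not computed. The log2 ratio of Slc16a3 to Slc2a3 was barely apart, at 2.08 and 2.20 with vehicle and 2.03 and 1.69 with 5D. The log2 ratio of Slc16a3 to Bsg was -1.30 and -1.35 with vehicle and -1.74 and -1.73 with 5D. Against Slc2a1, a gene of nearly equal level in CPM, it was -0.04 and -0.04 with vehicle and -0.38 and -0.38 with 5D. Against Ldha the log2 ratio of Ldha to Slc16a3 was 4.50 and 4.51 with vehicle and 4.74 and 4.75 with 5D, a change of 0.24. Ldha in turn had a lower mean log2 ratio with 5D to Bsg (by 0.17), Slc2a1 (by 0.10), Slc16a1 (by 0.15) and Ldhb (by 0.35). These ratios did not overlap between the groups, whereas that of Ldha to Slc2a3 overlapped. The ratio of Ldha to Slc16a1 was barely apart, at 5.28 and 5.39 with vehicle and 5.10 and 5.27 with 5D. To Ldhb it was 7.80 and 7.51 with vehicle and 7.32 and 7.28 with 5D. Here the gap between the groups was narrower than that between the vehicle libraries. The fall of Slc16a3 was thus larger than that of Ldha on the log2 scale, and their ratio did not overlap between the groups.

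Around these genes, 94 others were listed in 7 groups, and 77 of them were tested. In edgeR's quasi-likelihood fit, 10 of the 77 had a lower and 2 a higher level by the unadjusted limit of 0.05, and 0 passed after adjustment. The lower genes were 13.0% of the list, where 3.84% of all genes tested were lower and 3.50% higher by the same limit. The median log2 fold change of all 77 was -0.04. These groups were listed with earlier results of the same libraries known.

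Among the 22 glycolytic enzymes tested, 8 (36.4%) were lower and 0 higher by that limit, beside 3.84% and 3.50% of all genes tested. The list's median was -0.12 on the log2 scale. The smallest p-values were those of Tpi1 (triosephosphate isomerase), at 703 and 721 normalized CPM with vehicle and 607 and 595 with 5D, and of Pkm (pyruvate kinase), at 2958 and 2974 with vehicle and 2752 and 2676 with 5D. Their log2 fold changes of -0.24 and -0.13 (standard errors 0.04 and 0.03) had adjusted p-values of 0.0615 and 0.321 by edgeR. Pkm makes the pyruvate that Ldha reduces, and its libraries did not overlap between the groups.

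Of the 4 tested genes among other lactate enzymes and carriers, 1 was lower and 0 higher, beside 3.84% and 3.50% of all genes. That was Slc16a7, the carrier MCT2, which had 10 and 12 counts with vehicle and 3 and 1 with 5D. It made up 0.0887% of the summed level of the 3 monocarboxylate transporters with vehicle. None of the 4 other glucose transporters tested was lower or higher. The smallest p-values were those of Slc2a10, with 3 to 11 counts per library, and of Slc2a8, at 31.3 and 33.2 normalized CPM with vehicle and 36.7 and 34.8 with 5D (unadjusted p = 0.171 by edgeR's quasi-likelihood test).

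By the unadjusted limit, 3.84% of all genes tested were lower and 3.50% higher. Pyruvate can also enter the mitochondria, and of the 14 genes tested for that route 1 was lower and 0 higher. It was Pdp2, a phosphatase that activates pyruvate dehydrogenase, with 8.91 and 10.0 normalized CPM with vehicle and 5.79 and 5.77 with 5D (log2 fold change -0.71, standard error 0.19, unadjusted p = 0.00313 and adjusted p = 0.440 by edgeR). Pdpr, a regulatory subunit of pyruvate dehydrogenase phosphatase, had the next unadjusted p-value, of 0.115 by edgeR. Of 9 genes tested for the NADH shuttles, which oxidize cytosolic NADH in place of lactate dehydrogenase, 0 were lower and 1 was higher. It was Gpd2, the mitochondrial glycerol-3-phosphate dehydrogenase, at 78.5 and 68.9 normalized CPM with vehicle and 89.3 and 85.9 with 5D (log2 fold change 0.25, standard error 0.08, unadjusted p = 0.0101 and adjusted p = 0.543 by edgeR). Got1, the cytosolic aspartate aminotransferase, followed with a p-value of 0.0994.

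Of 17 regulators of these genes tested, 0 were lower and 1 was higher, beside 3.84% and 3.50% of all genes. Arnt, the partner subunit of HIF-1, had 42.6 and 39.1 normalized CPM with vehicle and 46.8 and 48.0 with 5D (log2 fold change 0.21, standard error 0.09, unadjusted p = 0.0414 and adjusted p = 0.647 by edgeR). Vps35, a retromer subunit in the recycling of GLUT1, had an unadjusted p-value of 0.0501. Named after their values were seen, Hif1a had a log2 fold change of 0.04, Myc of -0.01 and Txnip, whose protein lowers GLUT1 at the surface, of -0.08, and the libraries of each overlapped between the groups. Among 7 genes of acid and proton handling, 0 passed the unadjusted limit in edgeR's fit in either direction, 0 passed after adjustment, and the smallest p-values were 0.0831 for Car13 and 0.114 for Car2, both carbonic anhydrases.

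**Figure D5:**
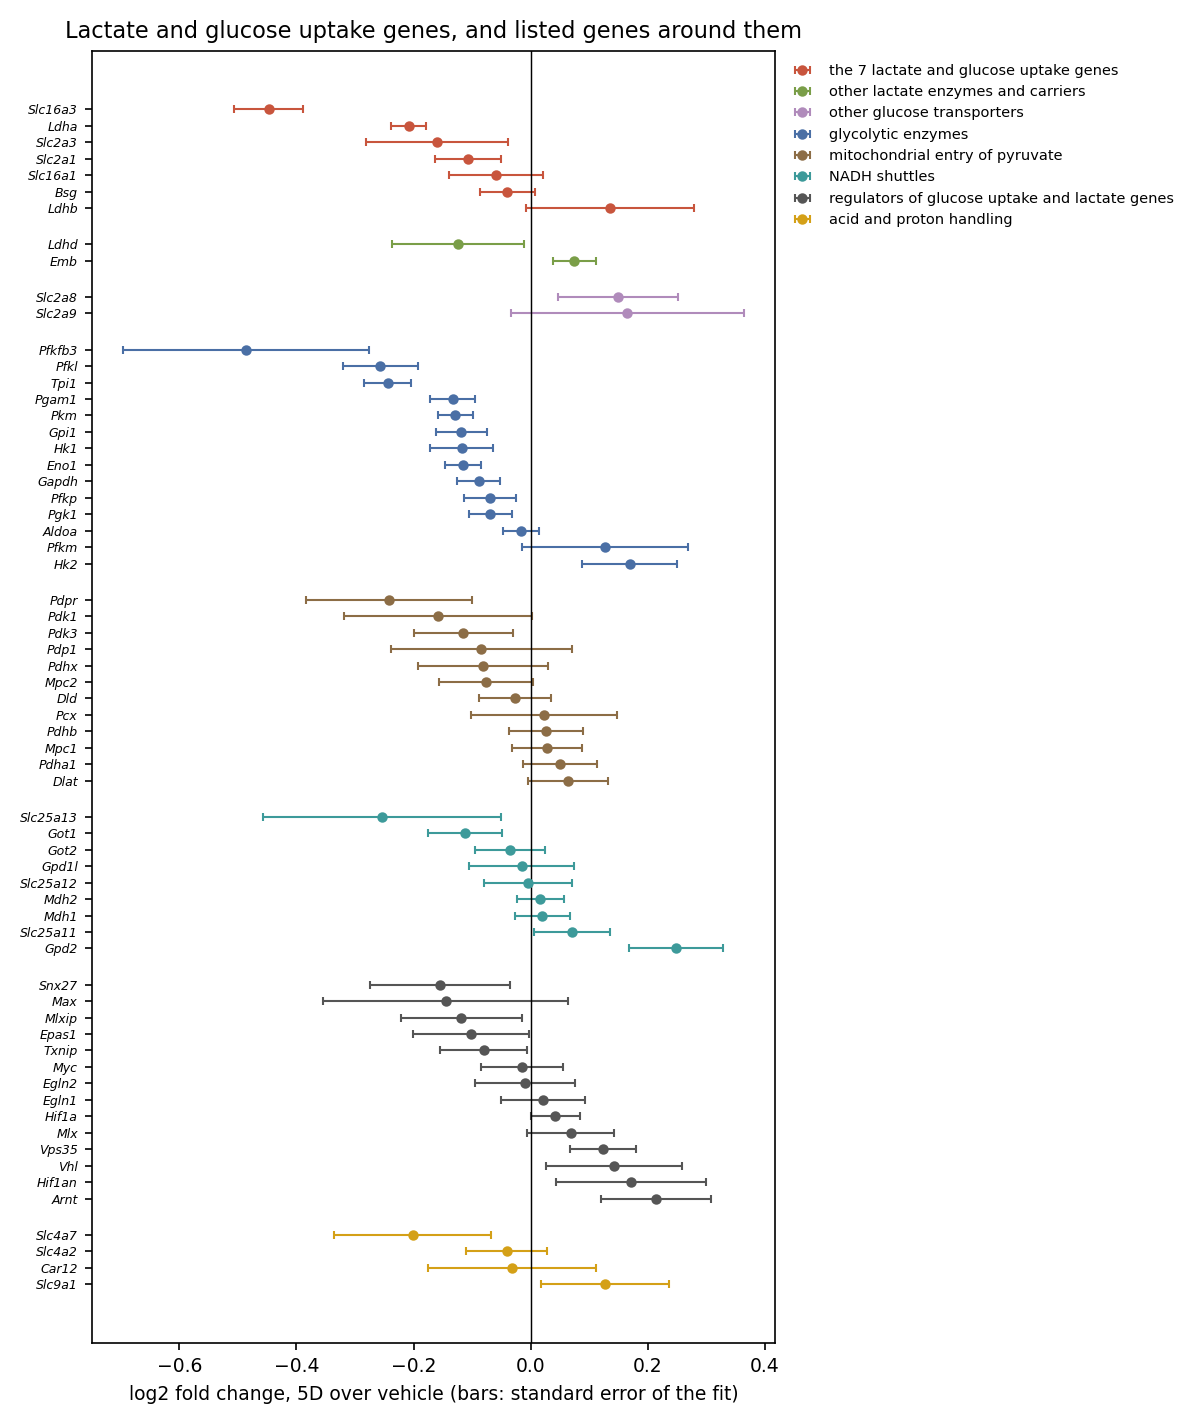
Log2 fold change of 5D over vehicle (x axis) with the standard error of the fit as bars, for the 7 genes and for the listed genes of at least 10 normalized CPM with vehicle, coloured by list. Slc16a3 stood at -0.45 and Ldha at -0.21, while Slc16a1, Bsg and Hif1a lay near 0.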

How the data were processed

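RNA of sorted lung ILC2s was sequenced in 2 vehicle and 2 compound 5D libraries. The labels give 10 ng of input RNA and an overnight culture. The paper states a smaller input and a different culture time. The authors aligned the reads with STAR to mm10, quantified them in Partek Genomics Suite against GENCODE M21, and deposited estimated counts per gene before normalization. Whether strand was used in counting is not given in the sources used here. Total counts were 20096513 to 28697196.

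The estimated counts were rounded and analysed in R 4.3.3 with edgeR 4.0.16. Libraries were scaled by upper quartile factors, computed on the whole table. The filter asked for a mean of 1 or more and a sum of 10 or more normalized counts. It left 17650 genes to test and removed 4904. The test was edgeR's quasi-likelihood test, two-sided, adjusted by Benjamini-Hochberg over the tested genes. The common biological coefficient of variation was 8.51%. Partek's own gene test, which the authors used, was not run. A standard error is the size of the log2 fold change over the square root of F, and 95% intervals use the t distribution with the degrees of freedom of the fit. Levels are normalized CPM, per kb of the union of annotated exons where genes are compared. Replicate libraries differed beyond sampling noise (chi-square per degree of freedom 6.10 with vehicle and 6.66 with 5D) and were counted as separate samples. A BLAST 2.17.0 search gave the near-identical genes, and coding sequences were aligned with biopython 1.88. Nucleotide identity of coding sequences was used in place of protein identity. Python 3.11.15 with matplotlib 3.10.9 drew the figures.

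The 7 genes and all lists were chosen with earlier results of these data known. Besides the 7 genes, the text names from each of the 7 lists around them those that pass after adjustment, the 2 with the smallest p-value, the 3 genes of at least 10 mean normalized CPM whose centred log2 values lay nearest to each of the 7, and the genes near-identical to Ldha and Ldhb. The 60 that share stretches with Slc2a3 were counted and not named, which departs from the rule set for near-identical genes. Markers are named for the check of the cell type. Ldhd, Slc2a2, Slc2a4, Hif1a, Myc and Txnip were named after their values were seen. Alternatives were TMM, DESeq2 size factors, no mitochondrially encoded genes, DESeq2 1.42.0, limma-voom (limma 3.58.1), no filter, filterByExpr, a replicate block, a limit of 2-fold with an unadjusted p-value, leaving out each library, other lengths, and, chosen after seeing the data, the upper quartile after the filter and libraries thinned to the smallest total. In simulated data with 200 changed genes of 17650, 135 changed and 7 unchanged genes were called. Of 112 changed genes of at least 10 CPM, 105 were called. These counts were not split by the size of the change. How often differences of the size seen in the 7 genes would be called was not tested.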

Additional observations from a re-analysis of the deposited data

How the results depend on the processing

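Slc16a3 and Ldha were also called lower under TMM, with the size factors of DESeq2, without mitochondrially encoded genes, by DESeq2's Wald test, with limma-voom, no filter, filterByExpr, the replicate block and the upper quartile after the filter. Without 5D replicate 2 neither was called (0 of the 7 genes, log2 fold changes of -0.44 for Slc16a3 and -0.20 for Ldha), and in libraries thinned to the smallest total 1 was, with Ldha at -0.21. Over the libraries left out in turn the called number ran from 0 to 2, the log2 fold change of Slc16a3 from -0.46 to -0.44 and that of Ldha from -0.23 to -0.19. Over all alternatives the adjusted p-value ran from 2.49e-07 to 0.0573 for Slc16a3 and from 7.47e-07 to 0.0764 for Ldha, lowest with DESeq2's Wald test. Ldhb turned to -0.025 without vehicle replicate 1 (range -0.025 to 0.30 over the libraries left out) and Slc16a1 to 0.031 without 5D replicate 2 (range -0.16 to 0.031).

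Of all genes, 12 were called lower and 5 higher. The counts were 43 and 17 with DESeq2, 23 and 9 with limma-voom, 35 and 11 with no filter, 4 and 2 in thinned libraries, 191 and 166 at a limit of 2-fold with an unadjusted p-value, and ran from 12 to 107 and from 3 to 73 when a library was left out, where the group left with 1 library is assumed to vary like the other. The replicate block gave 32 lower and 9 higher. The deviations of same-numbered libraries had a correlation of 0.00877. With 2 libraries per group this value cannot show whether the replicates were paired, and the pairing was not used in the main fit. Of the listed genes, 2 were higher at an unadjusted p-value, 4 with TMM and with limma-voom, 1 with DESeq2, 1 when the upper quartile followed the filter, and 0 to 6 when a library was left out.

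With the longest transcript as length, the vehicle levels per kb were 1947 for Ldha, 256 for Bsg, 49.0 for Slc2a1, 35.9 for Slc16a3, 13.6 for Ldhb and 5.64 for Slc2a3, and the shares with vehicle and 5D were 0.691% and 0.875% for Ldhb, 35.6% and 42.0% for Slc16a1, and 10.3% with vehicle for Slc2a3. From counts alone they were 0.497% and 0.630%, 36.1% and 42.5%, and 18.1% and 17.5%. These levels and shares move with the length used, and the cause of the other changes was not tested. Other scalings moved the median log2 fold change of all genes by at most 0.013. With 2 libraries per group, no library that stands apart within its group can be told from its partner, and groups of 2 were not searched for outliers.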

Other observations

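Among 8737 genes of at least 10 mean normalized CPM, those whose centred log2 values over the 4 libraries lay nearest to Slc16a3 were Idh1, the cytosolic isocitrate dehydrogenase, Cln8 and Dclre1c, with root mean square differences of 0.03, 0.04 and 0.04 on the log2 scale against a range of 0.47 for Slc16a3 itself. Their log2 fold changes were -0.48, -0.42 and -0.38. Nearest to Ldha were Pafah1b3, Setd5 and Ankle2, with differences of at most 0.01 against a range of 0.24 and log2 fold changes of -0.22, -0.20 and -0.23. For the other genes the nearest were Gm11223, Pcgf5 and Agbl5 (Ldhb), Pdcl3, Hypk and Exosc1 (Slc16a1), Plekhj1, Sec62 and Rtn4 (Bsg), Usp24, Nme3 and Cish (Slc2a1), and Sp1, Rhobtb2 and Ddhd1 (Slc2a3). With 4 libraries many genes have a like pattern, and the likeness is a description.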
